A study of Danio rerio with 6 samples.

Results

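Fatty acid oxidation and peroxisome genes were followed in whole zebrafish larvae that did or did not carry a microbiota. The genes were chosen by name, with earlier results of these data known. A probeset was included when its annotated symbol began with the name of an enzyme that activates, imports or oxidises fatty acids, of an electron transfer flavoprotein, or of a peroxin (cpt1 or cpt2, acad, acaa, acat, acot, acsl, acss, acsf, ech, eci, decr, ehhadh, hadh, etfa, etfb, etfdh, hacl, hsd17b4, ivd or pex with a number). The rule found 65 probesets for 50 genes among the 15502 probesets tested, and 9 of the genes had more than 1 probeset. A further 2 probesets with several symbols were left out. Genes of the acox, crot and acaa1 families and acadsb, which the rule also allows, are not analysed here.

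All larvae were of strain C32, were reared under gnotobiotic conditions and were sampled whole at 6 days post-fertilization. Germ-free larvae were kept without microbes throughout. Colonized larvae, labelled ex-germ-free conventionalized, were germ-free through day 3 and then lived with a microbiota from conventional zebrafish until day 6. There were 2 groups with 3 replicate pools each, of 28 to 80 larvae, and every pool was on its own 1-colour Affymetrix array, so that a value belongs to a pool and not to a larva. In such bulk RNA, fewer cells of a type and less RNA per cell cannot be told apart.

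Long-chain fatty acids are first joined to coenzyme A, then carried into mitochondria by the carnitine palmitoyltransferases and shortened there by repeated rounds of dehydrogenation, hydration, a second oxidation and thiolysis. Electrons from the first dehydrogenation pass through the electron transfer flavoprotein and its dehydrogenase to the respiratory chain. Peroxisomes run a parallel pathway for very long and branched chains, and their matrix enzymes are imported by peroxins. In adult fish and mammals the pathway is most active in muscle, heart, liver and intestine, and in mammals it is induced by fasting through PPAR nuclear receptors.

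The question put to each gene was whether its transcript level differed between larvae with and without microbes. Array medians lay between 86 and 93.8 intensity units, and Pearson correlations of log2 values within a group were 0.975 to 0.989 for germ-free and 0.987 to 0.992 for colonized arrays, while those between the groups were 0.97 to 0.981 and so overlapped the germ-free range. Germ-free replicate 3 stood apart: it correlated at 0.98 and 0.975 with its own group, against 0.989 between the other two germ-free arrays, and the array number in its label is out of run with the other 5. Without it 410 probesets were called in place of 263, and the members called were 7 lower and 1 higher, as with all arrays. A probeset was called when its adjusted p was under 0.05 in limma's moderated test on log2(intensity + 32), with Benjamini-Hochberg adjustment over all 15502 probesets; every log2 change below is colonized minus germ-free on that scale, which understates changes of dim genes. Of all probesets, 64 were called lower and 199 higher in colonized larvae, so that 75.7% of calls were higher, against 61.4% after quantile normalization and 64.1% with array weights. For acta1, whose control probesets at both transcript ends give a sign of RNA quality, the log2 excess of the 3' end over the 5' end was 2.35 to 2.64 in germ-free and 2.79 to 3.00 in colonized pools, and its part in the results below was not tested. Of the listed cell type markers, 13 of fast muscle, 8 of slow muscle and heart and 14 of hepatocytes were measured. So were 10 of enterocytes, 11 of neurons and 4 of the yolk syncytial layer. Of these, 0 lay below an intensity of 1 on any array, but that is no detection limit and present calls were not used.

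Among the 65 member probesets, those called lower in colonized larvae all belonged to genes of mitochondrial fatty acid oxidation, and peroxisomal enzymes and peroxins gave 0 calls. Of 27 mitochondrial probesets, 7 were called lower and 0 higher, and 25 had a lower mean in colonized pools. They stand for 23 genes, of which 6 were called on their brightest probeset: hadhaa, hadhb, hadh, acadm, etfdh and cpt1b. The seventh probeset belongs to decr1. Called lower among all probesets were 0.413%, against 10.8% of the 65 members and 25.9% of the mitochondrial ones. Because the members were chosen with earlier results known, these shares describe the set and do not test it. Of the 13 activation, 12 peroxisomal and 13 other probesets 0 were called lower. A single member, a probeset of the acetyl-CoA synthetase acss1, was called higher, where 1.28% of all probesets were. The median log2 change was -0.34 over the mitochondrial probesets, 0.08 over 13 activation probesets, -0.08 over 12 peroxisomal ones and 0.02 over all tested. Lower means were also seen for 8 of the 12 peroxisomal and 4 of the 13 activation probesets, and for 44.8% of all tested.

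**Figure D1:**
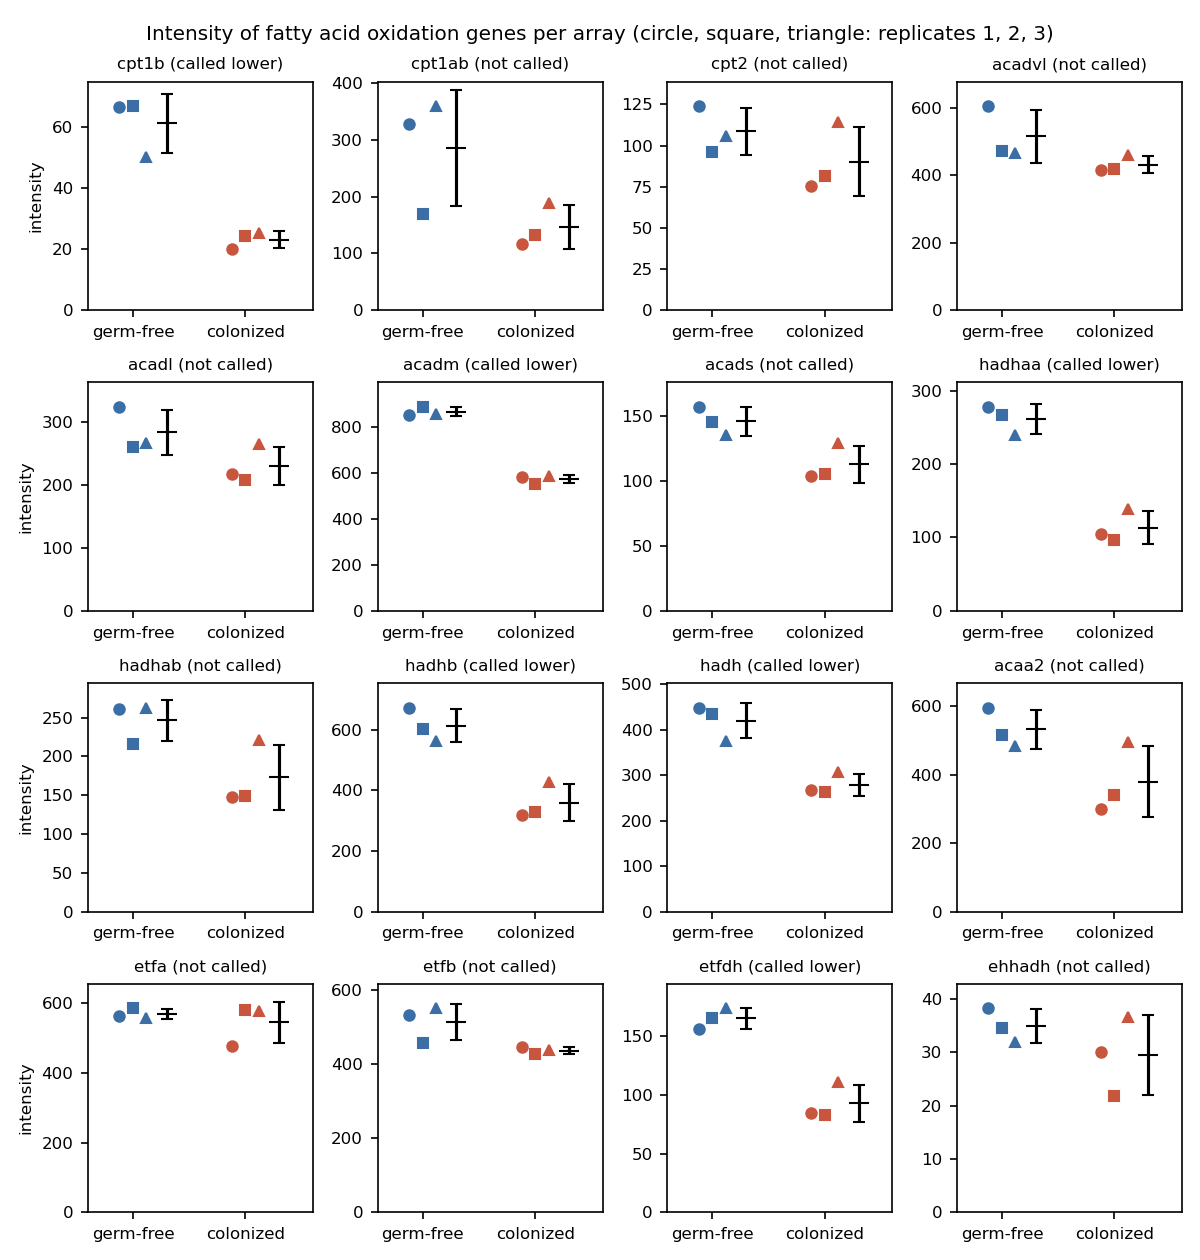
Deposited intensity (vertical axis, linear from 0) of 16 genes on each of the 6 arrays, with 1 symbol per pool and the mean ± SD of 3 pools beside them. For cpt1b, acadm, hadhaa, hadhb, hadh and etfdh, which were called, the colonized pools all lie below the germ-free pools. They also do for acads, acadvl and etfb, which were not called. For cpt1ab, cpt2, acadl, acaa2, hadhab, etfa and ehhadh the groups overlap.

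The mitochondrial trifunctional protein, which carries out the last 3 reactions of each round on long chains, had the largest log2 change among the members, although as a ratio of mean intensities cpt1b, described below with the carnitine palmitoyltransferases, fell further. Its alpha subunit gene hadhaa had intensities of 278, 267 and 239 in the germ-free pools and 105, 96.7 and 139 in the colonized pools. The groups did not overlap, and colonized replicate 3 was the highest of its group. The mean fell from 261 ± 19.9 to 113 ± 22.3 (SD, n = 3 pools per group), 43.4% of the germ-free level, a log2 change of -1.02 ± 0.12 (SE; limma adjusted p = 0.002). The beta subunit gene hadhb, which encodes the thiolase of the complex, had 674, 604 and 565 in germ-free and 320.1, 330.2 and 429 in colonized pools. It fell to 58.5% of the germ-free mean, with a log2 change of -0.73 ± 0.12 (limma adjusted p = 0.0152). In the GRCz12tu annotation, used for gene order only, hadhb and hadhaa are neighbouring protein-coding genes. The paralog hadhab, which has other neighbours, had 261, 216 and 263 in germ-free and 148, 149.5 and 221 in colonized pools. Its groups overlapped through colonized replicate 3, and it was not called (log2 change -0.46 ± 0.14, limma adjusted p = 0.186); with that array left out it was (log2 change -0.62, adjusted p = 0.0478). Whether the paralogs differ in their change was not tested.

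The acyl-CoA dehydrogenases, which open each round and are divided by chain length, all had lower means in colonized larvae, and the medium-chain enzyme was called. For acadm the germ-free pools had 854, 889 and 857 and the colonized pools 585, 554 and 586. Replicates were close within both groups, and no values overlapped. The mean fell from 867 ± 19 to 575 ± 18.2, a log2 change of -0.57 ± 0.08 (limma adjusted p = 0.00731). The short-chain gene acads had 157, 145 and 135 against 104, 105 and 129, groups that did not overlap, with a log2 change of -0.30 ± 0.10 that was not called (limma adjusted p = 0.248). The very-long-chain gene acadvl had 605, 472 and 467 against 415, 417 and 461. Its groups lay apart only narrowly (log2 change -0.23 ± 0.12, limma adjusted p = 0.439). The long-chain gene acadl overlapped slightly, with 325, 260.4 and 267 against 218, 209 and 265 (log2 change -0.27 ± 0.12, limma adjusted p = 0.384). The related acad11 and acad9 had log2 changes of -0.19 and -0.09 and were not called; acad9 is dim, with means of 24.5 and 21.2.

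Of the enzymes of the later steps that act on shorter chains, 1 was called. The 3-hydroxyacyl-CoA dehydrogenase gene hadh, which acts on short and medium chains, had 449, 435 and 376 in germ-free and 267, 263 and 307 in colonized pools. It fell from a mean of 420.1 ± 38.5 to 279 ± 24, a log2 change of -0.54 ± 0.11 (limma adjusted p = 0.0344), with no overlap. The thiolase gene acaa2, which ends each round on shorter chains, had 596, 517 and 483 against 301, 342 and 496. Colonized replicate 3 lay inside the germ-free range, and acaa2 was not called (log2 change -0.48 ± 0.16, limma adjusted p = 0.228); without that array it was (log2 change -0.67, adjusted p = 0.0365). The short-chain enoyl-CoA hydratase echs1 was at 159 ± 13.9 and 157 ± 10.3, with a 95% interval of the log2 change from -0.23 to 0.21.

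Auxiliary enzymes that prepare unsaturated chains for oxidation also had lower means in colonized larvae. The 2,4-dienoyl-CoA reductase gene decr1 has 3 probesets with 1 cluster number in their names, so they may share sequence. The one that was called had 57.9, 55.6 and 57 in germ-free and 28.4, 27.6 and 40 in colonized pools, with a log2 change of -0.48 ± 0.10 (limma adjusted p = 0.036). The brightest of the 3 had 136, 109.6 and 124 against 72.1, 78.3 and 106, a log2 change of -0.41 ± 0.12 that was not called (limma adjusted p = 0.166), and the other had -0.34 (limma adjusted p = 0.344). The enoyl-CoA isomerase eci1 had 146, 138 and 135 against 87.6, 72.2 and 116, with no overlap but a wide colonized spread (log2 change -0.48 ± 0.13, limma adjusted p = 0.11). It was called with colonized replicate 3 left out (log2 change -0.62, adjusted p = 0.0339). Its relative eci2 had 260.4 ± 26.3 and 238 ± 32.7, and the brighter of 2 ech1 probesets had 108 ± 15.2 and 88 ± 10.1. Neither was called (limma adjusted p = 0.717 and 0.451). The dimmer ech1 probeset had 56.8 ± 22.6 and 33.2 ± 14.8, with overlapping groups, and was not called (log2 change -0.43 ± 0.20, limma adjusted p = 0.402).

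Among the carnitine palmitoyltransferases, which admit long-chain fatty acids to the mitochondrion, 1 of the 3 outer-membrane genes was called. In mammals CPT1B is the form of muscle and heart and CPT1A that of liver and many other tissues. For cpt1b the germ-free pools had 66.5, 66.9 and 50.1 and the colonized pools 19.9, 24.3 and 25.2. All colonized values lay below 32, where the added pseudocount shrinks differences, and the mean fell from 61.2 ± 9.58 to 23.1 ± 2.84, 37.8% of the germ-free level (log2 change -0.75 ± 0.10, limma adjusted p = 0.00358). With 16 added the log2 change was -0.97, and with 100 added -0.39. The gene cpt1ab had 328, 169 and 360.2 in germ-free and 116, 132 and 189.8 in colonized pools. Germ-free replicate 2 lay within the colonized range, and although the colonized mean was 51% of the germ-free mean the gene was not called (log2 change -0.80 ± 0.24, limma adjusted p = 0.159); without that array it was (log2 change -1.10, adjusted p = 0.0183). The third gene, cpt1a2b, had 51.5 ± 5.79 and 52.1 ± 1.82, with a 95% interval of the log2 change from -0.18 to 0.21. The inner-membrane gene cpt2 was not called on either of its 2 probesets, with log2 changes of -0.21 and 0.08.

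Electron transfer from the acyl-CoA dehydrogenases runs through a heterodimer, encoded by etfa and etfb, to a membrane-bound dehydrogenase encoded by etfdh. For etfdh the germ-free pools had 156, 166 and 174 and the colonized pools 84.4, 83.2 and 111. It fell to 56.1% of the germ-free mean, from 165 ± 9.11 to 92.7 ± 15.5 (log2 change -0.67 ± 0.11, limma adjusted p = 0.0125), with no overlap. The subunit gene etfb had 532, 457 and 550.5 against 445, 427 and 437. Its groups did not overlap either, but the log2 change of -0.22 ± 0.10 was not called (limma adjusted p = 0.392). The subunit gene etfa had 564, 586 and 559 against 477, 581 and 579, with overlapping groups and a log2 change of -0.06 ± 0.10 (limma adjusted p = 0.838).

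**Figure D2:**
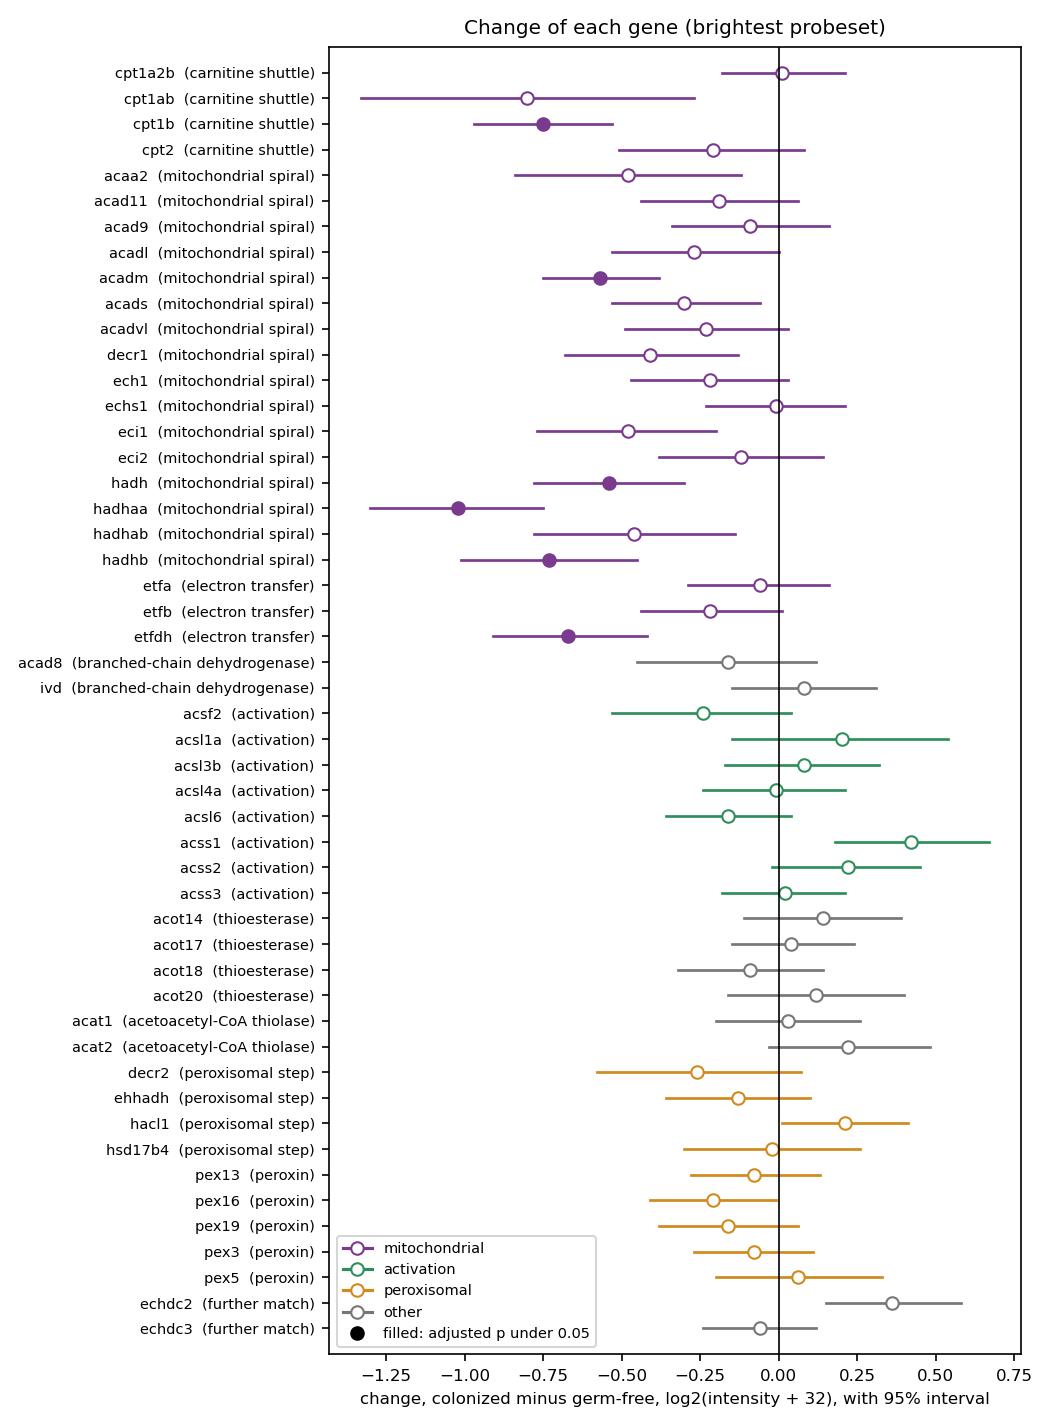
Log2 change (horizontal axis, colonized minus germ-free on log2(intensity + 32), with its 95% interval from limma) of the brightest probeset of each of the 50 genes, ordered and coloured by role. The 6 filled points, between -1.02 for hadhaa and -0.54 for hadh, are all mitochondrial; the called probesets of decr1 and acss1 are not the brightest of their genes and are not drawn; the peroxisomal and peroxin genes lie between -0.26 and 0.21.

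Of the 27 mitochondrial probesets, 12 had all colonized pools below all germ-free pools, and 0 had them above. Among all tested probesets this held for 7.08% below and 12.5% above, and among the 65 members for 15 below and 7 above. At an unadjusted p under 0.05, 14 of the 27 were lower and 0 higher, where 4.68% and 8.54% of all probesets were. The counts of calls moved with single arrays. Leaving out germ-free replicate 1 gave 4 members called lower. Leaving out a colonized pool gave 3, 2 and 10 members for replicates 1, 2 and 3 in turn, all of them mitochondrial. Lower calls over all probesets moved as well, from 64 with all arrays to 25 without germ-free replicate 1. Without colonized replicates 1, 2 and 3 in turn they were 22, 16 and 63. The fall of hadhaa was called on leaving out any of the 6 arrays and under the other alternatives (adjusted p from 0.000245 to 0.02). That of cpt1b was called wherever it was tested (adjusted p from 0.000435 to 0.0272), but a filter on dim probesets removes it.

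The remaining calls depended on arrays. That of acadm was lost without colonized replicate 2 (adjusted p = 0.0699), and that of etfdh without colonized replicate 1 or 2 (adjusted p = 0.0822 and 0.096). For hadhb 3 pools decided the call: with germ-free replicate 1 left out the adjusted p was 0.0737, with colonized replicate 1 left out 0.0912 and with colonized replicate 2 left out 0.108. For hadh and the decr1 probeset, replicates 1 and 2 of either group each decided it (adjusted p from 0.0919 to 0.209 for hadh and from 0.0825 to 0.199 for decr1). The log2 change stayed negative in each of these fits and was weakest at -0.43 for the decr1 probeset and -0.49 for hadh.

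On the mitochondrial probesets, colonized replicate 3 stood nearest to the germ-free pools. It had the highest colonized value for 23 of the 27 and the lowest for 0. High values in this pool were not confined to them, but were more frequent there than over all probesets. It was the highest colonized pool for 85.2% of the mitochondrial probesets and for 44.7% of all probesets. Among all 65 members, which include the mitochondrial ones, it was the highest for 49. The median deviation of the mitochondrial probesets from their germ-free means was -0.49 and -0.45 in colonized replicates 1 and 2 and -0.14 in replicate 3. For the activation probesets it was 0.11, 0.05 and 0.20, so that replicate 3 stood farthest from the germ-free pools there. The other 4 mitochondrial probesets, for which another colonized pool was the highest, were those of cpt1a2b, acad9, etfa and etfb. Among germ-free pools, replicate 1 was the highest for 16 of the 27, and the median deviations were 0.09, -0.07 and -0.03.

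**Figure D3:**
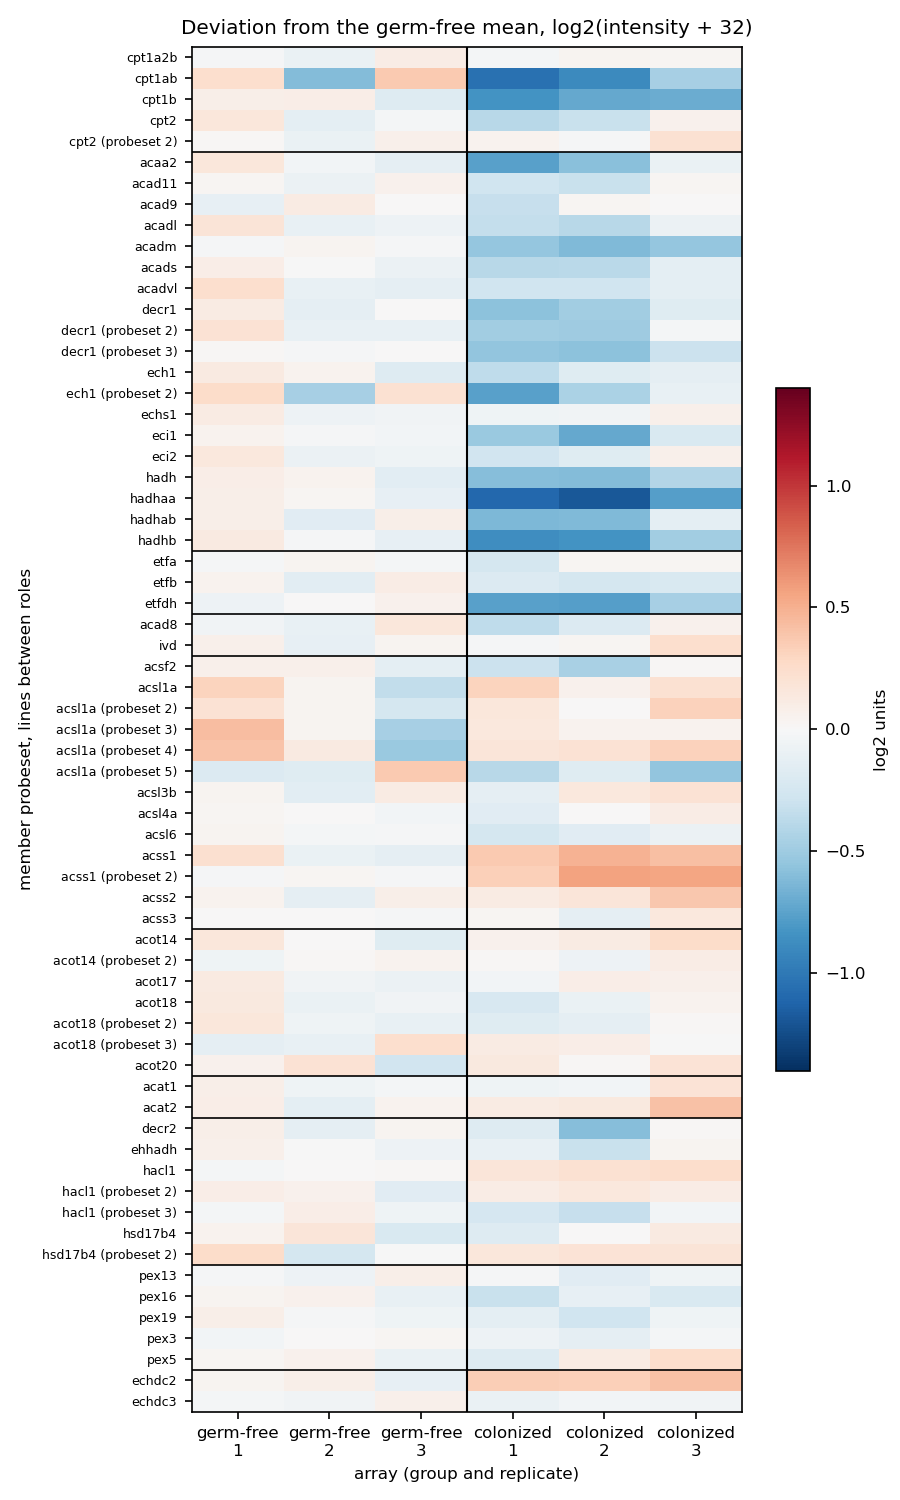
Deviation of each of the 65 member probesets (rows, by role) on each of the 6 arrays (columns) from its own germ-free mean, in log2 units of intensity + 32 (colour scale from -1.4 to 1.4). The blue block covers mitochondrial steps in the colonized arrays, and is paler in colonized replicate 3, where the median mitochondrial deviation was -0.14 against -0.49 and -0.45.

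Markers of the tissues that use fatty acids did not all move one way. The lists were chosen with earlier results known, so their counts describe them and do not test them. Of all probesets, 0.413% were called lower and 1.28% higher. All colonized pools lay above all germ-free pools for 12.5% of them and below for 7.08%. Summed over 10 enterocyte markers, intensities were 11634 to 12759 in germ-free pools and 9320 and 9829 in colonized replicates 1 and 2, against 12040 in colonized replicate 3; of the 10, 3 were called lower and 0 higher. The 3 were fabp2 (mean 2158 to 972), fabp6 (1113 to 664) and rbp2a (1103 to 686), and the first 2 of these are also among the pathway genes below. The other enterocyte markers were not called and went both ways. Means were higher in colonized pools for vil1 (ratio 1.42, groups that did not overlap), chia.1 (1.18) and apoa1a (1.09). They were lower for chia.2 (0.824, groups that did not overlap), slc15a1b (0.822), apoa4a (0.865) and mogat2 (0.965). Summed over 14 hepatocyte markers they were 16801 to 17906 in germ-free and 22429 to 26613 in colonized pools, the highest again in replicate 3, with 6 called higher and 0 lower. The 6 were tfa, serpina1l, cp, fga, fgb and fgg, with ratios of means from 1.7 for serpina1l to 4.47 for cp. Of the 14, 9 had all colonized pools above all germ-free pools and 0 had them below. The uncalled ambp, rbp4l and apom were among the 9, and ambp had a ratio of 1.52. The groups overlapped for fabp10a, apoba, apobb.1, rbp4 and hpda, with ratios of 1.18, 1.06, 1.01, 1 and 1.06. The 13 fast muscle markers summed to 62850 to 67345 and 65871 to 68067, and the 8 slow muscle and heart markers to 3902 to 4099 and 4151 to 4609, with 0 called in either list. The 11 neuron markers summed to 6533 to 7066 and 5898 to 6349, with 2 called lower, tuba2 and tubb5 (ratios 0.647 and 0.554). Of the 11, 4 had all colonized pools below all germ-free pools and 0 had them above. The uncalled snap25b and neurod1 were among the 4. For the other neuron markers the groups overlapped, with ratios from 0.837 for gng3 to 1.07 for syt1a. The 4 yolk syncytial markers summed to 5515 to 5824 and 4782 to 5853, with 0 called. The part of all these markers in the mitochondrial result was not tested.

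Activation of fatty acids, the step that commits them to oxidation or to lipid synthesis, gave 0 calls for the long-chain enzymes. The acyl-CoA synthetase gene acsl1a has 5 probesets; the brightest had 308, 249 and 184 in germ-free and 308, 255 and 286 in colonized pools, values that overlapped. Its log2 changes ran from -0.37 to 0.24 over the 5 probesets and none was called. The probeset at -0.37 was the dimmest, with 47.2, 48.5 and 85.1 against 37.4, 48.9 and 30. For acsl3b, acsl4a, acsl6, acsf2 and the dim acss3 the log2 changes lay between -0.24 and 0.08, with 0 calls.

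The acetyl-CoA synthetases, which activate acetate, gave the call among the activating enzymes. The mitochondrial form acss1 had 64.8, 67.4 and 64.8 in germ-free and 90.7, 112 and 111 in colonized pools on the probeset that was called. It rose from 65.6 ± 1.48 to 104 ± 11.8, a log2 change of 0.48 ± 0.10 (limma adjusted p = 0.0359). The other, slightly brighter probeset had 93.8, 69.1 and 66.9 against 107, 119 and 112, again with no overlap and a log2 change of 0.42 ± 0.11, but was not called (limma adjusted p = 0.11). The call rested on replicates 1 and 2 of the germ-free and 2 and 3 of the colonized pools, and leaving out any of these lost it (adjusted p from 0.0775 to 0.2). The cytosolic form acss2 had 78.9, 66.3 and 81.6 against 84, 88.7 and 107, with a log2 change of 0.22 ± 0.10 (limma adjusted p = 0.419).

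Peroxisomal enzymes of fatty acid oxidation gave 0 calls among 7 probesets of 4 genes. Of all probesets 0.413% were called lower and 1.28% higher, and at such shares 0 calls among so few tell little. The bifunctional enzyme gene ehhadh, a strong PPAR alpha target in rodents, had 38.2, 34.5 and 31.8 in germ-free and 30.1, 21.7 and 36.5 in colonized pools. The probeset is dim and its groups overlapped, with a log2 change of -0.13 ± 0.10 (limma adjusted p = 0.64). The other bifunctional enzyme gene, hsd17b4, had 336, 368 and 274 against 283, 325 and 356 on its brightest probeset. The 95% interval of that log2 change ran from -0.30 to 0.26. A dim probeset of hsd17b4 had a log2 change of 0.17, with an interval from -0.09 to 0.44, and was not called. The dienoyl-CoA reductase decr2 had 83.7 ± 8.45 and 66.2 ± 20.3 (log2 change -0.26 ± 0.14, limma adjusted p = 0.49). The brightest probeset of hacl1, a lyase of the alpha-oxidation pathway for branched chains, had 186, 192 and 193 against 218, 225 and 232. These groups did not overlap, but the log2 change of 0.21 ± 0.09 was not called (limma adjusted p = 0.356). Dim probesets of the gene had 0.12, again with no overlap, and -0.20, with overlap, and were not called.

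The 5 measured peroxins, proteins of peroxisome assembly, gave 0 calls as well, where 0.413% of all probesets were called lower and 1.28% higher. For 2 of the 5, pex16 and pex19, all colonized pools lay below all germ-free pools, as for 7.08% of all probesets. For pex19 the gap was smaller than the rounding of the values given. The membrane protein chaperone gene pex19 had 199.8, 186 and 178 in germ-free and 168, 149 and 178 in colonized pools, with a log2 change of -0.16 ± 0.10 (limma adjusted p = 0.524). The gene pex16, which takes part in membrane assembly, had 32.9, 33.7 and 26.8 against 18.7, 26.2 and 22.5 (log2 change -0.21 ± 0.09, limma adjusted p = 0.34). For pex3, pex13 and the import receptor gene pex5 the log2 changes were -0.08, -0.08 and 0.06. Over the 12 peroxisomal probesets, the 95% intervals of the log2 change reached from -0.58 for decr2 to 0.44 for the dim probeset of hsd17b4. A log2 change as large as that of acadm lay inside the interval of decr2. Some of these probesets are dim, such as those of ehhadh and pex16 with germ-free means of 34.9 and 31.1. The added 32 limits how far such probesets can fall on this scale. Their intervals therefore cannot be set against the falls of brighter genes such as hadhaa. Whether peroxisomal and mitochondrial genes differ in their change was not tested.

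**Figure D4:**
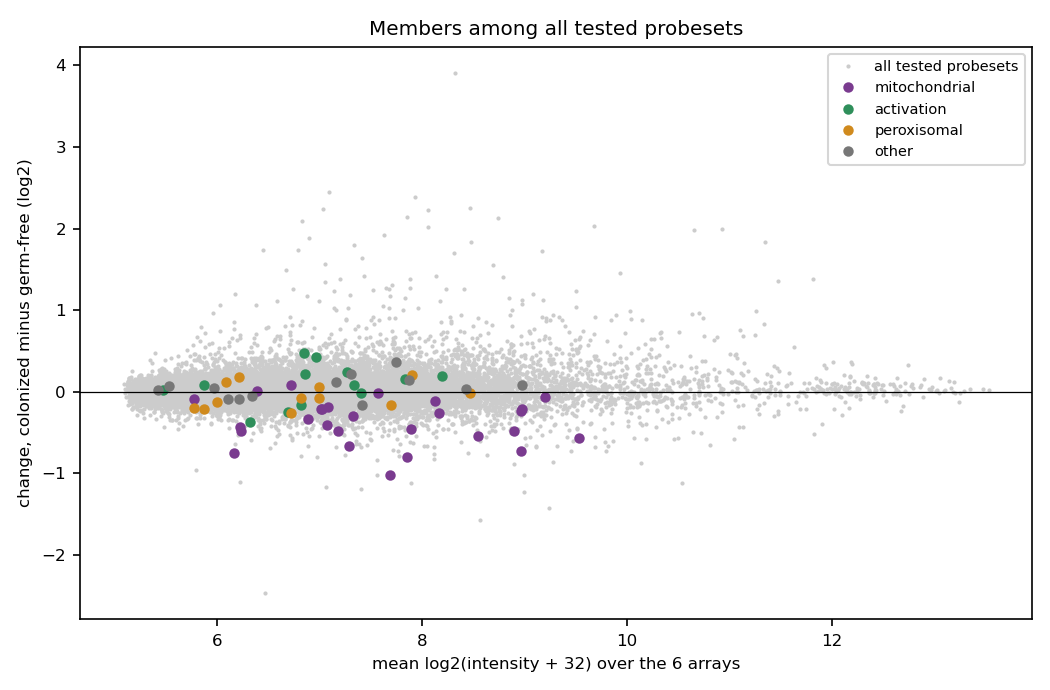
Log2 change of every tested probeset (grey) against its mean log2(intensity + 32) over the 6 arrays, with the 65 members coloured by part. Mitochondrial members lie mostly below 0 over the part of the brightness range that they cover (median -0.34). Peroxisomal members have a median of -0.08, against 0.02 for all probesets, and 8 of the 12 lie below 0.

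Other enzymes found by the name rule act on neighbouring pathways. The branched-chain amino acid dehydrogenases ivd, at 459 ± 32.8 and 488 ± 49.5, and acad8, at 149 ± 17.9 and 131 ± 24.7, were not called. Neither were the acetoacetyl-CoA thiolases acat1 (309.9 ± 17.3 and 318 ± 34.7) and acat2 (115 ± 12.1 and 139.8 ± 20.2). The 7 thioesterase probesets, for genes acot14, acot17, acot18 and acot20 that release free fatty acids from coenzyme A, had log2 changes from -0.09 to 0.14 and 0 calls, and the brightest, of acot14, had 191 ± 24.9 and 213 ± 17.5. The enoyl-CoA hydratase domain gene echdc2 had 162, 167 and 142 in germ-free and 208, 205 and 219 in colonized pools. Its groups did not overlap, and its log2 change of 0.36 ± 0.10 was not called (limma adjusted p = 0.117).

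Genes of the pathway outside the name rule were taken from a list of 107, chosen with earlier results known, of which 55 were measured. Of these, 4 were called lower, 3 higher and 48 were not called, where 0.413% of all probesets were called lower and 1.28% higher. Such counts describe the list and do not test it. The median log2 change of the 55 was -0.02. Among 10 measured regulators, 3 genes of ketone body metabolism and 3 of odd-chain oxidation, 0 were called. The genes ppargc1a, pparaa, pparab and pdk2a are not analysed here. The pyruvate dehydrogenase kinase genes pdk4 and pdk2b, which spare glucose when fatty acids are burnt, had 258 ± 40.9 and 246 ± 4.15, and 759 ± 70.9 and 619 ± 109, and neither was called (limma adjusted p = 0.888 and 0.368). The carnitine-acylcarnitine carrier slc25a20, which works between cpt1 and cpt2, had 224, 270.3 and 226 against 206, 215 and 218. All colonized values lay below the germ-free ones, by less than the germ-free spread (log2 change -0.15 ± 0.10, limma adjusted p = 0.584).

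Calls in the list fell on fatty acid supply and on peroxisomal enzymes of other substrates. Of 18 measured genes of carriers and supply, 4 were called lower and 1 higher, where 0.413% and 1.28% of all probesets were. The lipoprotein lipase inhibitor gene angptl4, a PPAR target in mammals, had 959, 968 and 942 in germ-free and 275, 355 and 383 in colonized pools (log2 change -1.43 ± 0.12, limma adjusted p = 0.000202). The lipase gene lpla itself rose, with 199.5, 205 and 173 against 424, 371 and 383 (log2 change 0.92 ± 0.10, limma adjusted p = 0.00122). The fatty acid and bile acid binding protein genes fabp2, fabp1b.1 and fabp6, expressed in enterocytes, fell by 1.13, 0.89 and 0.72 on the log2 scale, the last not without colonized replicate 2 (adjusted p = 0.0648).

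Of 21 other genes listed as peroxisomal enzymes and transporters 0 were called lower and 2 higher, where 0.413% and 1.28% of all probesets were. Where the products of these 21 genes are located was not examined. Urate oxidase, uox, had 427, 417 and 377 in germ-free and 742, 666 and 923 in colonized pools (log2 change 0.87 ± 0.12, limma adjusted p = 0.00548). The D-amino acid oxidase gene dao.1 had 18.1, 16.7 and 12.9 against 45.7, 89.5 and 106 (log2 change 1.19 ± 0.18, limma adjusted p = 0.00809), though it was not called without colonized replicate 2 (adjusted p = 0.0584). Catalase, cat, the peroxisomal marker enzyme, had 422, 373 and 448 against 305, 337 and 414, values that overlapped (log2 change -0.22 ± 0.12, limma adjusted p = 0.483). The peroxisomal thiolase and sterol carrier gene scp2a had 717, 727 and 712 against 597, 602 and 898; only colonized replicate 3 lay above the germ-free pools. Over the 21 genes, 4 had all colonized pools below all germ-free pools and 4 had them above, where 7.08% and 12.5% of all probesets did. The 4 below were abcd3a, idh1, mdh1ab and slc25a17, and the 4 above were uox, dao.1, hao1 and lonp2. The transporter gene abcd3a had 568, 491 and 543 in germ-free and 307, 339 and 466 in colonized pools (log2 change -0.51 ± 0.14, limma adjusted p = 0.132).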

How the data were processed

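Intensities of 15617 probesets on 6 arrays were used as the authors deposited them. Per the series' design text, 12 ug of RNA per pool was labelled, 20 ug of cRNA was hybridised, and the authors normalized the intensities with the invariant set method and modelled them as PM-MM in dChip; such scaling would take out a shift common to most genes. Present and absent calls were not used here. After 115 control probesets were left out, limma 3.58.1 (R 4.3.3) was fitted to log2(intensity + 32) of 15502 probesets with the group as its only term and an intensity trend in the moderated variances; tests were two-sided, with Benjamini-Hochberg adjustment over all probesets. The fit was tested on simulated data. Precision is limited by the 3 pools per group.

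Probesets were named from the array platform's annotation, parts of which may be outdated; all 65 members were found by Entrez identifier in the GRCz12tu table and 0 symbols changed. A gene with several probesets was described by its brightest one (mean log2 value over all arrays). Members were placed in the mitochondrial, activation, peroxisomal or other part by symbol alone. The genes eci2, ech1 and acad11 were counted as mitochondrial, and 21 measured genes outside the rule were listed as peroxisomal enzymes and transporters. Where the products of any of these genes are located was not examined. Named were the listed members, members called or with an unadjusted p under 0.05, the brightest member of each role, and, of the pathway list, called genes and a fixed set. The members and lists were chosen with earlier results of these data known. Alternatives were pseudocounts of 16 and 100, a filter at a mean intensity of 50, quantile normalization, no trend, array weights, a replicate block and leaving out each array. Promoter motifs were not searched, since no promoter sequence was used here.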

Additional observations from a re-analysis of the deposited data

How the results depend on the processing

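Under 13 alternatives, 2 of the 8 called member probesets, of hadhaa and cpt1b, were called in every fit that tested them. With all arrays, 263 probesets were called; 569 were with array weights, and 114 to 410 on leaving out 1 array. Members called lower, 7 with all arrays and all mitochondrial, were 12 with array weights (12 of the mitochondrial probesets) and 2 to 10 on leaving out 1 array (2 to 10 mitochondrial). Lower calls over all probesets were 64 with all arrays, 204 with array weights and 16 to 84 on leaving out 1 array. Higher calls over all probesets were 199, 365 and 98 to 326 in the same order. Members called higher, 1 with all arrays, were 0 to 1 on leaving out 1 array. The peroxisomal members gave 0 calls under every alternative. Pseudocounts of 16 and 100, quantile normalization and no trend left 7 lower and 1 higher, and the filter on dim probesets, which removes cpt1b and the called decr1 probeset, left 5 and 1. The replicate numbers of the groups were not shown to pair the pools (correlations of deviations -0.0841, 0.0971 and 0.0693; 3 of 6 arrays correlated best with their own number); with a replicate block 6 members were called lower and 0 higher, and hadh (adjusted p = 0.0716) and acss1 (0.0549) were not called.

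Among the named genes, signs turned for these changes, none of which was called: etfa ran from -0.11 to 0.02 on leaving out 1 array, acot14 on its dim probeset from -0.03 to 0.06, hsd17b4 from -0.12 to 0.07, acat1 from -0.05 to 0.08 (and -0.03 with quantile normalization and with array weights), pdk4 from -0.15 to 0.05 and scp2a from -0.25 to 0.03. For acsl1a, a probeset ran from -0.15 to 0.30 (-0.12 with array weights) and another, at 0.24 with all arrays, from -0.02 (without germ-free replicate 3) to 0.44. With 3 pools per group, the smallest called change of a member was 0.48 on the log2 scale. The cause of these dependences was not tested.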
